A study of Mus musculus with 4 samples.

Results

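The genes described here are the core of cellular iron storage and transport: ferritin heavy chain (Fth1) and light chain (Ftl1), transferrin receptor 1 (Tfrc), the ferritin cargo receptor Ncoa4, the metalloreductases Steap3 and Cybrd1, the ferrous iron importer Slc11a2 (DMT1), the cytosolic iron chaperones Pcbp1 and Pcbp2, and the iron exporter Slc40a1 (ferroportin). These 10 genes were chosen by name for their role, from a table of 47729 gene rows, and all 10 had a row. RNA was sequenced from C57BL/6 spleen CD4 T cells driven towards induced regulatory T (iTreg) cells for 4 days in culture. One group received ferrous sulfate (FeSO4, 50 µM) and the other PBS (Mock), with 2 libraries in each. Both groups grew in the same differentiation medium, which held TGF-β at 5 ng/mL, IL-2 at 100 U/mL and blocking antibodies to IL-4 and IFNγ (5 µg/mL each). The study's methods state naive CD4 T cells as the starting population and describe the libraries as pairs from separate experiments, and the labels number them 1 and 2 without saying which experiment each came from. The comparison of FeSO4 with Mock addresses the effect of added iron on the iTreg transcriptome.

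Cells take up most iron through transferrin, which binds its receptor and is carried into endosomes, where a reductase converts the iron to its ferrous form and Slc11a2 moves it to the cytosol. Pcbp chaperones hand cytosolic iron to ferritin, a hollow shell built from heavy and light chains, and Ncoa4 delivers ferritin to lysosomes when stored iron is needed. Much of this system is controlled after transcription: iron regulatory proteins bind a stem-loop, the iron-responsive element, in iron-poor cells, which blocks translation of ferritin and ferroportin and protects the receptor's mRNA from decay. The present values are mRNA levels, so translation was not measured.

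The gene rows held 35183187 to 40859178 reads per library. T cell markers were abundant: 7 genes summed to 2737 and 2626 CPM (read counts scaled to a common library size) for Mock against 3055 and 3049 CPM for FeSO4. Among them Cd3g (0.50), Cd3d (0.38), Cd28 (0.21) and Cd247 (0.19, log2 fold changes) rose and the other 3 did not pass, so this sum was higher in both FeSO4 libraries, and its part in the ferritin values was not tested. The defining iTreg factor Foxp3 was present in every library, at 586 and 693 CPM in the Mock pair against 375 and 471 CPM in the FeSO4 pair, and fell by 0.59 on the log2 scale (edgeR adjusted p = 0.000223). Of the other 4 genes listed for regulatory T cells in general, Ikzf2 fell by 0.79 (edgeR adjusted p = 0.000986), and Il2ra (0.02), Ctla4 (0.17) and Tnfrsf18 (-0.16) did not pass. None of these 4 was taken as a marker of induced cells alone. Erythroid genes, which matter for an iron-handling list, summed to 26.0 and 21.1 CPM in the Mock pair against 39.9 and 34.7 CPM in the FeSO4 pair, over the 6 of 8 markers that had a row. The globin gene Hba-a1 made up most of that sum, with 24.5 and 19.6 CPM for Mock against 37.5 and 32.5 CPM for FeSO4, and rose by 0.66 on the log2 scale (edgeR adjusted p = 0.000731). The summed erythroid level was thus higher in both FeSO4 libraries, as the ferritin genes were, and its part in any result below was not tested. Macrophage and monocyte markers summed to 9.09 CPM in Mock replicate 1 and 4.08 to 4.56 CPM in the other libraries. In bulk RNA such as this, fewer cells of a type and less RNA per cell cannot be told apart.

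The iron-responsive element was searched for in the transcripts of the members, because it is a sequence through which iron regulatory proteins act on some of these mRNAs. A site was a 6-base loop of the letters CAGTGN, preceded by a bulged C and 5 stem bases that pair with the 5 bases after the loop (Watson-Crick or G-T), on the sense strand only. At most 1 mismatch in the stem was allowed. Of the 10 members, 5 had such a site in an untranslated region (UTR) and the UTRs held 8 sites in all. Elements that depart further from these letters are missed, so the number per gene is a minimum. The study's introduction gives 5 elements for the 3′ UTR of Tfrc, where this search found 4. Positions are those of the mouse build NCBIM37 (mm9) with GENCODE M1 transcripts and serve for orientation. Each line gives 27 bases, 5′ to 3′ on the transcript, with the loop in capitals. Fth1 and Ftl1 each had 1 site in the 5′ UTR, at chr19:10057223-10057249 (plus strand) and chr7:52715150-52715176 (minus strand), and Slc40a1 had 1 at chr1:45982311-45982337 (minus strand). They are shown because this is the position at which the element governs translation.
Fth1: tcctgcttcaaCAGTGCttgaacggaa
Ftl1: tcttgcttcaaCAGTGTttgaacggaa
Slc40a1: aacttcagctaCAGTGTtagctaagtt

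The heavy and light chain elements were identical at 25 of 27 bases. Counted from the first base printed, the Ftl1 element differed from that of Fth1 by C3T and C17T, of which the latter is the last base of the loop. The Slc40a1 element shared 13 of 27 bases with either. The receptor and importer sites lay in the 3′ UTR instead, which is the position at which the element governs mRNA decay. Those of Tfrc were at chr16:32631306-32631332, chr16:32631685-32631711, chr16:32631750-32631776 and chr16:32631797-32631823 (plus strand), and that of Slc11a2 was at chr15:100225585-100225611 (minus strand).
Tfrc, the first site: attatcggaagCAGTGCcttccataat
Tfrc, the second site: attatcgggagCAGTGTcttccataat
Tfrc, the third site: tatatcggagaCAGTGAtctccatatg
Tfrc, the fourth site: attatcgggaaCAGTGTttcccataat
Slc11a2: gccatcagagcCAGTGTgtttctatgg

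The first and second Tfrc sites were identical at 25 of 27 bases, and the third was the most different, with 17 or 18 bases shared with each of the others. The Slc11a2 site had 1 mismatch in its stem, while the stems of the other 7 sites were fully paired. A fully paired site in a UTR occurred in 157 of 22754 coding genes searched (0.69%), and one with at most 1 mismatch in 990 (4.35%). No match in a UTR was found in Ncoa4, Steap3, Cybrd1, Pcbp1 or Pcbp2, which says only that these letters were not in the UTRs searched. Pcbp2 had a match with 1 stem mismatch in its coding part, at bases 1017 to 1043 of the transcript.

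**Figure D1:**
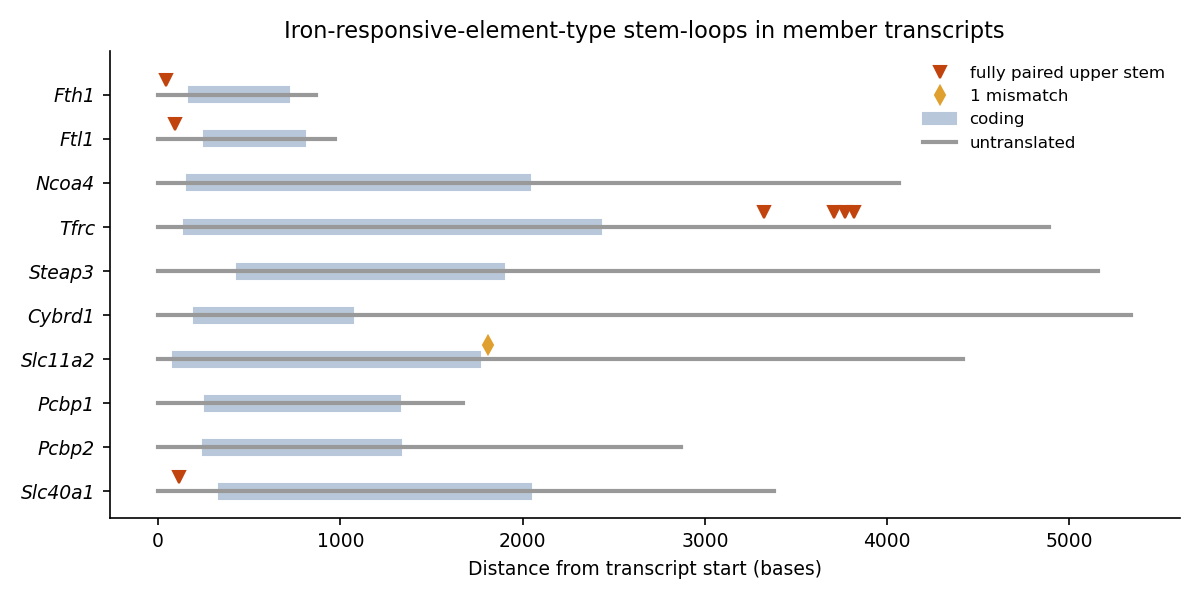
Transcripts of the 10 members drawn to scale in bases from the transcript start, with the coding part as a box and the untranslated parts as a line. Triangles mark loops with a fully paired stem and the diamond the Slc11a2 loop with 1 mismatch. The loops of Fth1, Ftl1 and Slc40a1 begin at bases 42, 90 and 114, before the coding part, and those of Tfrc at bases 3327, 3706, 3771 and 3818, after it.

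Of the 9 members tested, the 2 ferritin genes rose with FeSO4 and none was called lower. The other 7 did not pass the test (edgeR's quasi-likelihood test, adjusted p under 0.05 over 13732 genes). Over all genes tested, 20.0% passed in either direction, 10.9% as higher and 9.17% as lower, so 2 of 9 members is close to the share of genes in general. At an unadjusted p under 0.05 with a log2 fold change of 0.5 or more in size, the cutoff of the study, 10.4% of genes tested and 0 members passed. The median log2 fold change was 0.13 over the 9 members and -0.00 over all genes tested. Slc40a1 had too few reads for the filter and was not tested in this fit, which took no block for the replicate number. With that block, Slc11a2 was also called lower and Pcbp1 higher, in a setting where 24.9% of genes tested passed.

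Fth1, the heavy chain, carries the ferroxidase centre that oxidizes iron for storage. Fth1 (ENSMUSG00000024661, chromosome 19, 10057193 to 10059582, plus strand) had 34118 and 31291 reads in Mock and 35943 and 38475 reads in FeSO4. On library sizes scaled by TMM these were 840 and 748 CPM against 1049 and 1039 CPM. Both FeSO4 libraries lay above both Mock libraries, and the FeSO4 libraries differed from each other by less than the Mock libraries did. The mean rose from 794 ± 65.5 CPM (SD, n = 2) to 1044 ± 6.87 CPM (SD, n = 2). The log2 fold change was 0.39 ± 0.06 (SE), a 1.31-fold level with a 95% interval of 1.20 to 1.44 (edgeR adjusted p = 0.000396). Counting error was small beside this spread, as the 95% Wilson interval of Mock replicate 1 was 832 to 849 CPM and that of Mock replicate 2 was 740 to 756 CPM. By p, Fth1 ranked 367th of the 13732 genes tested.

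Ftl1, the light chain, lacks the ferroxidase centre and aids the formation of the iron core. Ftl1 (ENSMUSG00000050708, chromosome 7, 52713314 to 52715254, minus strand) had 50466 and 48834 reads in Mock and 52138 and 50905 reads in FeSO4, or 1243 and 1167 CPM against 1521 and 1375 CPM. The FeSO4 libraries again lay above both Mock libraries. The mean rose from 1205 ± 53.8 CPM (SD, n = 2) to 1448 ± 104 CPM (SD, n = 2), a log2 fold change of 0.26 ± 0.06 (SE) or 1.20-fold (95% interval 1.09 to 1.32, edgeR adjusted p = 0.00765). Without FeSO4 replicate 1, the higher of the FeSO4 libraries, the value was 0.19 and the edgeR adjusted p was 0.126. Over all 15 alternatives it ranged from 0.000282 to 0.126, whereas that of Fth1 stayed between 8.34e-09 and 0.0330.

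Together the ferritin genes took 0.213% and 0.196% of gene reads in Mock and 0.250% and 0.237% in FeSO4. The ratio of light to heavy chain reads was 1.48 and 1.56 in Mock and 1.45 and 1.32 in FeSO4, so the FeSO4 ratios lay below the Mock ratios. On the log2 scale the groups differed by -0.13 (exact two-sided permutation test over libraries, p = 0.333, the smallest that 2 against 2 libraries can give). Ferritin transcripts have processed copies elsewhere in the genome, to which reads may align as well. In the NCBIM37 genome, 8.69% of the 50-base windows of Fth1 and 74.9% of those of Ftl1 occurred at another locus, and no gene row holds a read that aligned to several places. Ftl1 reads that aligned to such copies as well are missing from its row, and the ratio is of reads counted, not of molecules. The rows of annotated copies held at most 0.0234% of the Fth1 count and 0.328% of the Ftl1 count in any library, and adding them changed neither call. The share of reads with more than 1 alignment was 4.42 and 4.27% in Mock and 4.60 and 4.62% in FeSO4, and its part in the ferritin values was not tested.

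Ncoa4, which binds the heavy chain and delivers ferritin for lysosomal breakdown, did not pass the test. Ncoa4 (ENSMUSG00000056234, chromosome 14, 32973051 to 32993041, plus strand) had a level of 58.0 and 62.9 CPM in Mock against 70.3 and 62.0 CPM in FeSO4, and the groups overlapped. The log2 fold change was 0.13 ± 0.08 (SE), with a 95% interval of -0.05 to 0.31 (edgeR adjusted p = 0.309). Leaving out FeSO4 replicate 1 gave 0.0404, and leaving out FeSO4 replicate 2 gave 0.22. Of its 50-base windows, 78.8% occurred in a processed copy on chromosome 12 (Gm6768), whose own row had 14 to 27 reads.

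**Figure D2:**
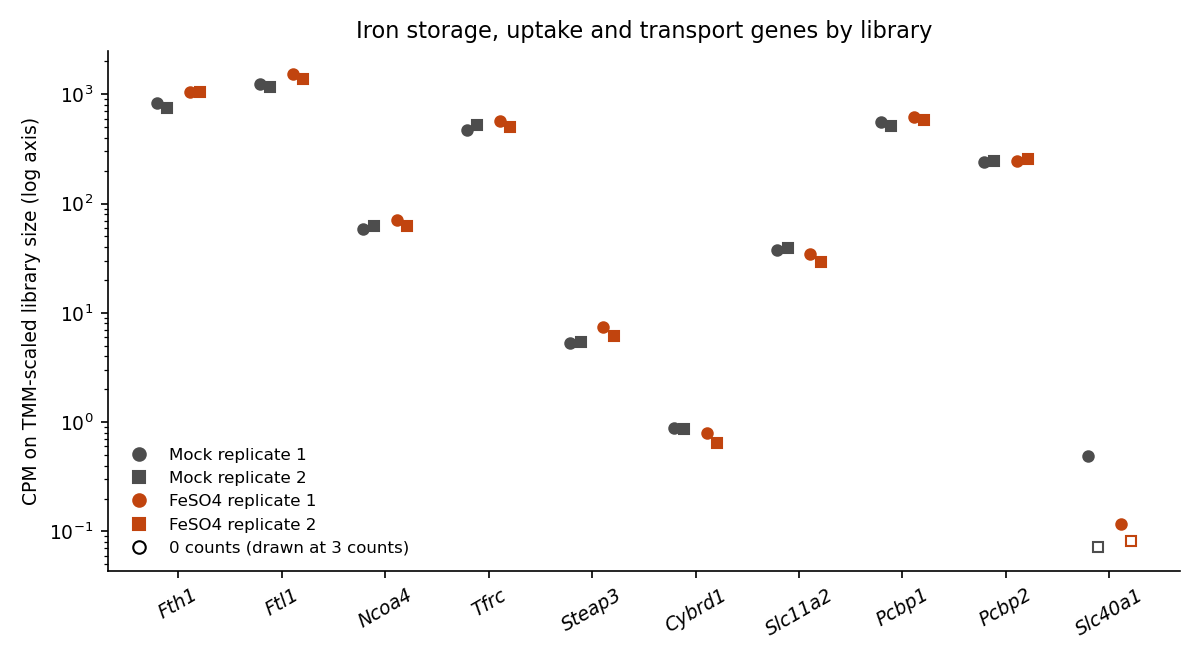
Level of each member in CPM on TMM-scaled library sizes (log axis), with 1 point per library: grey for Mock, orange for FeSO4, circles for replicate 1 and squares for replicate 2. Open points mark libraries with 0 counts, drawn at the level of 3 counts. The FeSO4 points of Fth1 and Ftl1 lie above the Mock points, those of Tfrc, Ncoa4 and Pcbp2 overlap them, and Slc40a1 has reads only in replicate 1 of each group.

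Transferrin receptor 1 showed no change that could be told from the spread between libraries. Tfrc (ENSMUSG00000022797, chromosome 16, 32609006 to 32632880, plus strand) had 19035 and 21710 reads in Mock and 19607 and 18756 reads in FeSO4, or 469 and 519 CPM against 572 and 506 CPM. FeSO4 replicate 2 lay between the Mock libraries. The mean was 494 ± 35.3 CPM (SD, n = 2) in Mock and 539 ± 46.4 CPM (SD, n = 2) in FeSO4, and the log2 fold change was 0.13 ± 0.07 (SE). The 95% interval of the fold ran from 0.985 to 1.21 (edgeR adjusted p = 0.228), so a level under 0.985 of Mock lay outside it, while no change and a rise of up to 1.21-fold lay within it. None of the 50-base windows of Tfrc occurred elsewhere, and the value was above 0 in all 15 alternatives, from 0.04 to 0.21, without passing the test in any.

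The ratio of receptor to heavy chain reads sets iron uptake beside storage and needs no scaling between libraries. It was 0.558 and 0.694 in Mock and 0.546 and 0.487 in FeSO4. Both FeSO4 ratios were below both Mock ratios, although FeSO4 replicate 1 lay only just below Mock replicate 1. On the log2 scale the mean was -0.68 ± 0.22 (SD, n = 2) in Mock and -0.96 ± 0.11 (SD, n = 2) in FeSO4. The difference of -0.27 had p = 0.333 in an exact two-sided permutation test, the smallest possible with 2 libraries in each group. Leaving out 1 library at a time gave differences from -0.43 to -0.11.

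Steap3, an endosomal ferrireductase that acts on transferrin-bound iron, had a level of 5.25 and 5.38 CPM in Mock against 7.50 and 6.18 CPM in FeSO4. Steap3 (ENSMUSG00000026389, chromosome 1, 122087334 to 122169282, minus strand) rested on 213 to 257 reads per library. Both FeSO4 libraries were above both Mock libraries, but the log2 fold change of 0.36 ± 0.19 (SE, 95% interval -0.05 to 0.77) did not pass (edgeR adjusted p = 0.216). It was 0.22 without FeSO4 replicate 1. Non-overlap of this kind is common here: FeSO4 lay wholly above Mock in 30.1% of all genes tested and wholly below in 29.4%. Among the 9 members tested it lay above in 4 and below in 2.

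Cybrd1, the duodenal cytochrome b reductase best known from the gut, was detected at a low level in iTreg cells. Cybrd1 (ENSMUSG00000027015, chromosome 2, 70955980 to 70980983, plus strand) had 36 reads in each Mock library and 27 and 24 in the FeSO4 libraries, or 0.887 and 0.860 CPM against 0.788 and 0.648 CPM. The log2 fold change was -0.29 ± 0.46 (SE), with a 95% interval of -1.26 to 0.69 that holds differences in either direction (edgeR adjusted p = 0.716). The value was -0.15 when FeSO4 replicate 2 was left out.

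Slc11a2 (DMT1), which moves ferrous iron out of endosomes, was the only member whose interval lay wholly below 0. Slc11a2 (ENSMUSG00000023030, chromosome 15, 100218329 to 100255503, minus strand) had 1541 and 1648 reads in Mock and 1190 and 1081 reads in FeSO4, or 38.0 and 39.4 CPM against 34.7 and 29.2 CPM. Both FeSO4 libraries were below both Mock libraries. The mean was 38.7 ± 1.01 CPM (SD, n = 2) in Mock and 32.0 ± 3.91 CPM (SD, n = 2) in FeSO4. The log2 fold change was -0.28 ± 0.10 (SE, 95% interval -0.49 to -0.07), with an unadjusted p of 0.0121 and an adjusted p of 0.0570 in edgeR's test, so it was not called. It lay below 0 in all 15 alternatives and passed the test in 5 of them, 1 of which took the replicate number as a block, with adjusted p between 0.0202 and 0.475. Its size rested on single FeSO4 libraries: without FeSO4 replicate 1 the value was -0.40 (edgeR adjusted p = 0.0295), and without FeSO4 replicate 2 it was -0.15 (edgeR adjusted p = 0.475). The ratio of importer to receptor reads was 0.0810 and 0.0759 in Mock and 0.0607 and 0.0576 in FeSO4, a log2 difference of -0.41 (exact permutation p = 0.333, the smallest possible). Exons of Slc11a2 overlap those of Gm5475 on the other strand over 6.33% of their bases, and the strand setting of the counting is not given in the sources used here.

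Pcbp1 and Pcbp2 bind RNA and also carry iron to ferritin and to iron enzymes. Pcbp1 (ENSMUSG00000051695, chromosome 6, 86474493 to 86476165, minus strand) had a level of 552 and 517 CPM in Mock against 621 and 578 CPM in FeSO4, with both FeSO4 libraries above. The log2 fold change was 0.17 ± 0.06 (SE, 95% interval 0.03 to 0.30), with an unadjusted p of 0.0172 and an adjusted p of 0.0737 in edgeR's test, which is past the threshold before adjustment only. It passed in 3 of 15 alternatives, 1 of which was the block, with adjusted p from 0.0203 to 0.437, and 1 of these left out Mock replicate 1 (value 0.21, edgeR adjusted p = 0.0460). Pcbp2 (ENSMUSG00000056851, chromosome 15, 102301063 to 102330490, plus strand) had a level of 238 and 246 CPM in Mock against 244 and 255 CPM in FeSO4, and the groups overlapped. The log2 fold change of Pcbp2 was 0.04 ± 0.06 (SE, 95% interval -0.09 to 0.17, edgeR adjusted p = 0.683), and it was -0.0216 when libraries were scaled by size only. Leaving out 1 library at a time gave Pcbp2 values from 0.01 to 0.08. Exons of other genes, Map3k12 and Gm17403, overlap 59.3% of the Pcbp2 exon bases on the other strand, so reads there cannot be assigned with certainty.

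**Figure D3:**
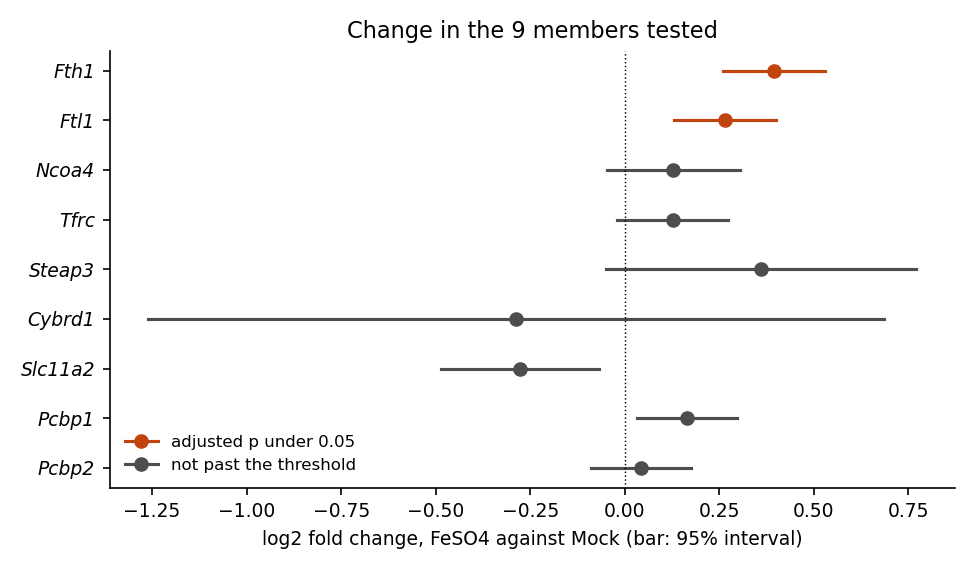
Log2 fold change of FeSO4 against Mock for the 9 members tested, with bars for the 95% interval and orange for an adjusted p under 0.05. The intervals of Fth1 (0.26 to 0.53) and Ftl1 (0.13 to 0.40) lie above 0, that of Slc11a2 lies below 0 without passing the adjusted test, and that of Cybrd1 is the widest.

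Slc40a1 (ferroportin), the iron exporter, was near the limit of detection. Slc40a1 (ENSMUSG00000025993, chromosome 1, 45964915 to 45982439, minus strand) had 20 reads in Mock replicate 1, 0 in Mock replicate 2, 4 in FeSO4 replicate 1 and 0 in FeSO4 replicate 2. A count of 0 allows up to 3 counts, which is 0.0717 CPM in Mock replicate 2 and 0.0810 CPM in FeSO4 replicate 2. The level in Mock replicate 1 was 0.493 CPM (95% Wilson interval 0.319 to 0.761), and that in FeSO4 replicate 1 was 0.117 CPM (0.0454 to 0.300). Reads were thus found in replicate 1 of each group and the groups overlapped. Under 4 alternatives the gene entered the test and did not pass (edgeR adjusted p from 0.0607 to 0.726), and its fitted fold change then depends on the libraries at 0. Some low-count genes also had most of their reads in Mock replicate 1. The multicopper ferroxidase Heph had 18 reads there and 0 in the other libraries. Among 10 macrophage and monocyte markers, Lyz2 had 164 reads there against 8, 0 and 0 in Mock replicate 2, FeSO4 replicate 1 and FeSO4 replicate 2. Csf1r, Mertk and Cd14 had 7, 5 and 4 reads in Mock replicate 1 and 0 elsewhere, while Marco and Spic were at 0 in every library. In the same order of libraries, Cd68 had 72, 68, 50 and 57 reads, Vcam1 had 107, 87, 78 and 64, and Itgam had 2, 0, 1 and 1, so these were also highest in Mock replicate 1, by less. Adgre1 went the other way, with 8, 28, 12 and 29 reads. Their part in the Slc40a1 value was not tested.

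Levels of different genes were compared per kilobase of annotated exon. In Mock, Fth1 (917 CPM per kilobase) and Ftl1 (899) stood highest and overlapped in their libraries. They were followed by Pcbp1 (320), by Pcbp2 (84.4) and Tfrc (79.9), which overlapped, and then by Ncoa4 (13.6) and Slc11a2 (6.09). Steap3 (0.930), Cybrd1 (0.164) and Slc40a1 (0.0729) were the lowest. Of the 12773 tested genes with a length, Fth1 ranked 46th and Ftl1 48th by this measure in Mock, whereas Tfrc ranked 749th and Slc11a2 6819th. In FeSO4 the order was the same except that Tfrc and Pcbp2 changed places, with Fth1 at 1205 CPM per kilobase, Ftl1 at 1080, Tfrc at 87.2 and Pcbp2 at 86.9. The FeSO4 libraries of Tfrc and Pcbp2 overlapped and those of Fth1 and Ftl1 did not. The exon lengths of Ftl1 and Ncoa4 include sequence shared with copies elsewhere. That of Pcbp2 includes bases that overlap exons of other genes (59.3%). The levels of these genes, and their order beside others, are thus less certain.

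The genes whose pattern over the 4 libraries was closest to that of a member were found among 8520 other genes whose mean reached 10 CPM, by the Euclidean distance of centred log2 CPM. For Fth1 they were Nab2 (distance 0.02), Psma1 (0.02) and Tdrkh (0.03). For Tfrc they were Orc2 (0.01), Ehd4 (0.02) and Nol10 (0.02). For Slc40a1, set against 8521 genes, the nearest were Penk (2.04), Pcbp3 (2.10) and ENSMUSG00000096768 (2.13). Slc40a1 had 2 libraries at 0 reads, and none of the genes compared came as near to it as those named for Fth1 and Tfrc. The limit of 10 CPM left out genes with as few reads as Slc40a1, so these distances cannot show whether such a gene lies closer.

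Beyond the members, 59 other iron handling genes were listed by role, of which 44 were tested. Of these, 7 rose and 5 fell, and 32 did not pass. The share called was 27.3%, beside 20.0% of all genes tested, and the median log2 fold change was 0.04. The list was drawn up with earlier results of these data known, so this share and those of its groups below are descriptions only. The regulators that read iron in the cytosol did not pass. Aco1, the iron regulatory protein that exchanges an iron-sulfur cluster for RNA binding, had a log2 fold change of 0.11 ± 0.08 (SE, 54.7 and 54.6 CPM in Mock against 59.4 and 58.2 CPM in FeSO4, edgeR adjusted p = 0.375). Its partner Ireb2 stood at 0.01 ± 0.08 (SE, edgeR adjusted p = 0.967), a value whose sign differed between settings. Fbxl5, the iron-sensing ligase subunit that targets Ireb2, stood at 0.22 ± 0.10 (SE, edgeR adjusted p = 0.125), with 0.11 when Mock replicate 1 and 0.34 when Mock replicate 2 was left out.

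Among the other regulators, the hypoxia factor subunit Hif1a rose by 0.49 ± 0.07 (log2, SE), from 121 and 139 CPM to 180 and 186 CPM (edgeR adjusted p = 0.000158). Nfe2l2, the factor of the antioxidant response, whose known targets include ferritin genes and Hmox1, rose by 0.39 ± 0.08 (log2, SE), from 61.9 and 63.8 CPM to 86.9 and 78.2 CPM (edgeR adjusted p = 0.00199). Hmox1, the inducible heme oxygenase that frees iron from heme, rose by 0.68 ± 0.15 (log2, SE), from 9.26 and 9.30 CPM to 16.4 and 13.4 CPM (edgeR adjusted p = 0.00382). In these 3 genes both FeSO4 libraries were above both Mock libraries. Without FeSO4 replicate 1, Hmox1 stood at 0.54 with an edgeR adjusted p of 0.0524, while Hif1a and Nfe2l2 passed the test in all 14 alternatives.

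Among the heme-linked genes, 1 of 8 tested rose and 2 fell (37.5% called, beside 20.0% of all genes tested). Abcg2, an exporter whose substrates include porphyrins, fell by 0.76 on the log2 scale, from 23.5 and 29.7 CPM to 14.2 and 17.3 CPM (edgeR adjusted p = 0.000772). Slc46a1, a folate and heme importer, fell by 0.87, from 6.06 and 5.02 CPM to 3.59 and 2.51 CPM (edgeR adjusted p = 0.0190). Among the 6 tested genes of uptake without transferrin, 2 rose and 1 fell (50% called, beside the same 20.0%). Slc39a14 (ZIP14), a carrier of iron that is not bound to transferrin, fell by 0.39, from 23.8 and 22.0 CPM to 16.7 and 18.1 CPM (edgeR adjusted p = 0.0215). Slc46a1 and Slc39a14 each lost the call when either of 2 single libraries was left out. Slc46a1 then stood at -0.73 without Mock replicate 1 and -0.62 without FeSO4 replicate 2, and Slc39a14 at -0.34 without Mock replicate 1 and -0.34 without FeSO4 replicate 1. In the same uptake group, Mcoln2, an endolysosomal cation channel, rose by 1.10, from 2.86 and 1.41 CPM to 5.28 and 3.86 CPM (edgeR adjusted p = 0.0183). Its size rested on single libraries, as it was 0.67 without Mock replicate 2 and 1.68 without Mock replicate 1, and its edgeR adjusted p was 0.186 without Mock replicate 2 and 0.132 without FeSO4 replicate 1. Cd44, a cell adhesion receptor also reported to carry iron bound to hyaluronate, rose by 0.42, from 91.2 and 86.3 CPM to 123 and 116 CPM (edgeR adjusted p = 0.000503).

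Slc11a2 protein is removed by ubiquitin ligases of the Nedd4 family with the adaptors Ndfip1 and Ndfip2. In this group Nedd4l fell by 0.81 on the log2 scale, from 59.7 and 67.8 CPM to 36.7 and 36.1 CPM (edgeR adjusted p = 7.53e-06), and it passed the test in all 14 alternatives. Ndfip1 rose by 0.19, from 309 and 307 CPM to 360 and 344 CPM (edgeR adjusted p = 0.0315), but lost the call in 7 of 14 alternatives, among them the omission of any 1 of the 4 libraries (0.17 to 0.23). Ndfip2 and Nedd4 did not pass. Herc2, a ligase that targets Ncoa4, fell by 0.45, from 160 and 195 CPM to 136 and 124 CPM (edgeR adjusted p = 0.00115), or by 0.30 without Mock replicate 2, and was the only one of 9 tested genes of ferritin turnover and chaperoning to pass. Picalm, a clathrin assembly protein that takes part in receptor uptake, rose by 0.34, from 200 and 217 CPM to 252 and 276 CPM (edgeR adjusted p = 0.00208), and the other 4 tested genes of receptor trafficking did not pass. The mitochondrial iron importers Slc25a37 (-0.04 ± 0.09, SE, edgeR adjusted p = 0.798) and Slc25a28 (0.10 ± 0.11, SE, edgeR adjusted p = 0.566) did not pass either. The transferrin gene Trf had 0 or 1 read per library.

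**Figure D4:**
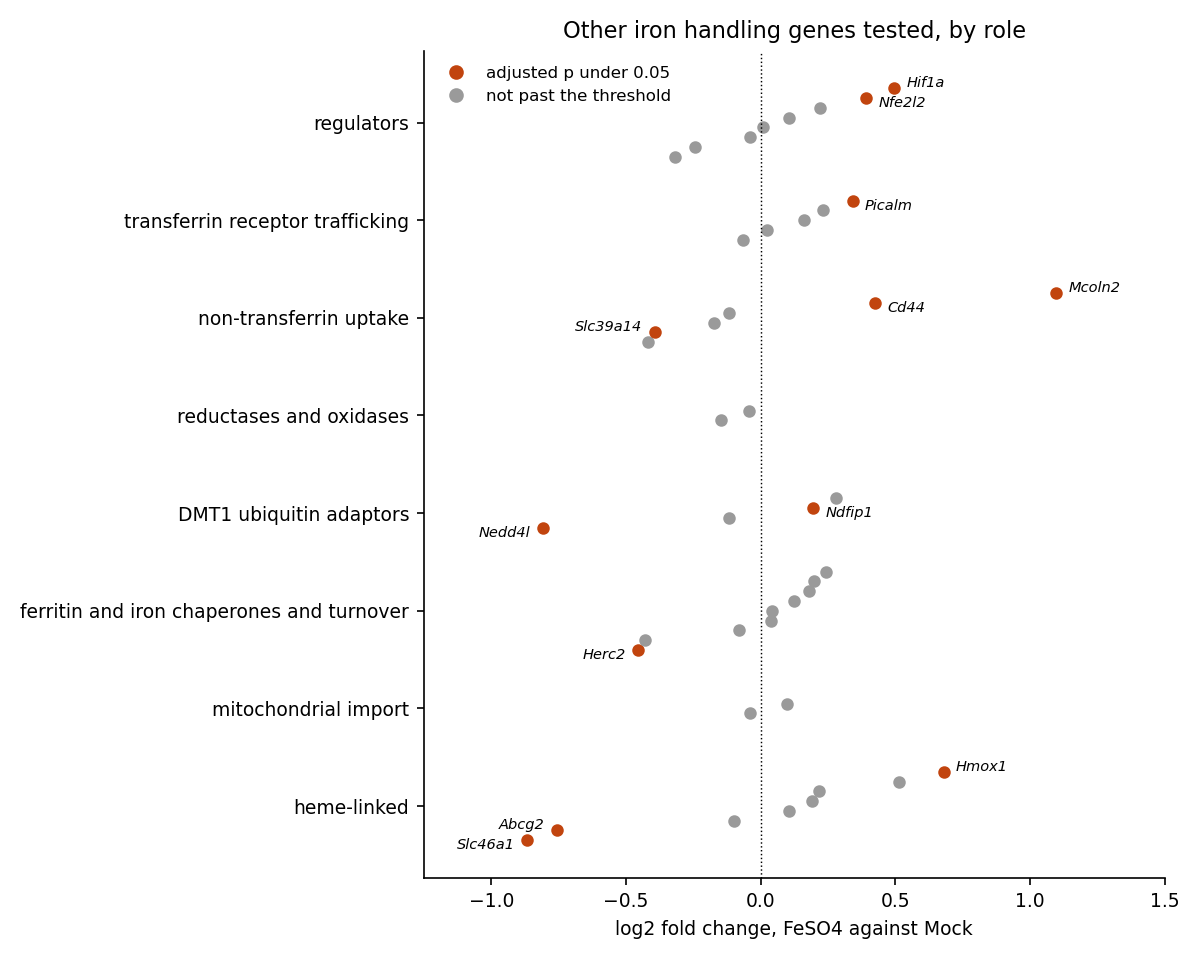
Log2 fold change of FeSO4 against Mock for the 44 other iron handling genes tested, with 1 point per gene, grouped by role on the vertical axis and offset within a role only for legibility. The 12 genes with an adjusted p under 0.05 are orange and named. They lie on both sides of 0, from Slc46a1 (-0.87) to Mcoln2 (1.10).

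Of 5 further genes whose mRNA is known to carry an iron-responsive element, 4 were tested. The sequence search described above found no site in a UTR of Epas1 or Cdc42bpa, a site with 1 mismatch in Cdc14a, and fully paired sites in the rest. It thus misses known elements. Cdc14a, a cell cycle phosphatase, rose by 0.41 ± 0.11 (log2, SE), from 15.5 and 16.4 CPM to 21.0 and 21.3 CPM (edgeR adjusted p = 0.0183). Cdc14a lost the call in 4 of 14 alternatives, with adjusted p up to 0.0908 (without Mock replicate 1, value 0.36), 0.0629 without FeSO4 replicate 1 (0.42) and 0.0821 without FeSO4 replicate 2 (0.40). Epas1, which encodes HIF-2α (-0.32 ± 0.39, SE, on 33 to 72 reads per library, and -0.64 to -0.0674 when single libraries were left out) and Cdc42bpa (0.04 ± 0.22, SE) did not pass, and Alas2 had 4 to 16 reads per library and was not tested. Across all genes with a fully paired stem-loop in a UTR, 119 were tested, of which 15 were higher and 19 were lower (28.6%, beside 20.0% of all genes tested), with a median log2 fold change of -0.02. This set holds Fth1, Ftl1 and Tfrc.

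**Figure D5:**
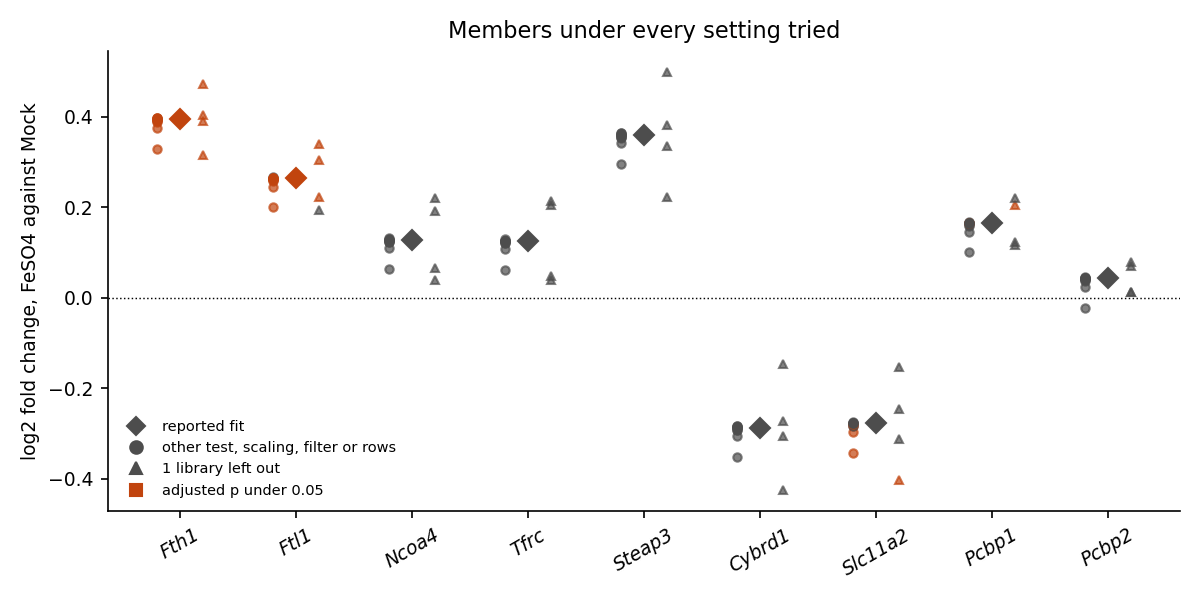
Log2 fold change of each tested member under the reported fit (diamond), under another test, scaling, filter or set of rows (circles) and with 1 library left out (triangles), with orange for an adjusted p under 0.05. Fth1 is orange under every setting shown and Ftl1 under all but 2. Slc11a2 stays below 0 throughout, and Pcbp2 crosses 0 when libraries are scaled by size only.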

How the data were processed

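RNA-seq of 4 iTreg libraries was analysed, 2 per group, with groups taken from the labels. The authors deposited raw counts, 1 row per Ensembl gene, that had not been normalized. The study's methods name build mm9, STAR and DESeq, while the submitters' processing notes name mm10, Trim Galore 0.6.7, STAR 2.7.9a and featureCounts. The annotation and strand setting are not given in the sources used here. Gene IDs go beyond those of GENCODE M1 (NCBIM37, mm9), so positions from M1 are for orientation. The table's 5 closing rows of unassigned reads (without a feature 4.36 to 6.03%, ambiguous 3.78 to 3.91%, low quality 0.802 to 0.988%, unaligned 1.80 to 2.31%, more than 1 alignment 4.27 to 4.62% of a library) entered neither library sizes nor tests.

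Counts were tested in R 4.3.3 with edgeR 4.0.16: filterByExpr with the group (13732 genes), TMM, and the quasi-likelihood F test with p-values adjusted over those genes (Benjamini-Hochberg). A standard error is the log2 fold change divided by the square root of F. CPM uses TMM-scaled library sizes. The biological coefficient of variation was 8.24%. Replicates differed by more than sampling noise (chi-square per degree of freedom 11.3 in Mock and 9.02 in FeSO4). P-values measure the spread between these libraries. Wilson intervals (95%) and the floor of 3 counts cover counting error only. Symbols were matched by Ensembl ID for 32799 of 47729 rows, and rows without one held 0.755% of reads.

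Alternatives were DESeq2 1.42.0, limma-voom 3.58.1, other scalings, filters and thresholds, a block for the replicate number, the omission of single libraries, and summed rows of copies. Summing the rows of all copies and the older quasi-likelihood fit were added after the data were seen. Stem-loops were searched in GENCODE M1 coding transcripts, and 50-base windows were matched to the NCBIM37 genome. The members, gene lists and tests were chosen with earlier results of these data known. All members were named, as were all listed genes past the threshold (at most 12 per list), and Hmox1, Aco1, Ireb2, Fbxl5, Slc39a14, Slc25a37 and Slc25a28 whatever their p. Other listed genes are given as counts only, and a few are not reported here. Likeness was given for Fth1, Tfrc and Slc40a1. Genes beyond this rule were named as cell type markers or for low reads.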

Additional observations from a re-analysis of the deposited data

Results flagged for a closer look

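Reads with more than 1 alignment, which no gene row holds, made up a mean of 4.61% of a FeSO4 library and 4.35% of a Mock library, a difference of 0.264 percentage points. The values were 4.60 and 4.62% in FeSO4 against 4.42 and 4.27% in Mock, so both FeSO4 libraries lay above both Mock libraries. The Mock libraries also differed from each other, and the difference between groups was not tested. What drew attention is that this signal lies outside the gene counts and stands above the level of the control libraries. Ftl1 and Ncoa4 are the members with most of their 50-base windows at another locus (74.9% and 78.8%). No file used here assigns these reads to genes, and their part in the member values was not tested.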

How the results depend on the processing

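Fth1 kept its direction and its call under all 15 alternatives, with log2 fold changes from 0.32 to 0.47. The log2 fold changes when 1 library was left out ranged from 0.19 to 0.34 for Ftl1, -0.40 to -0.15 for Slc11a2 and 0.12 to 0.22 for Pcbp1. Ftl1 did not pass without a filter beyond 1 count in the table (0.27, adjusted p = 0.0748), where 22164 genes were tested and 3.74% passed. There 1 member was higher, 3 pathway genes were higher and 1 was lower, and 0 further genes with the element were higher. Slc11a2 passed under upper quartile scaling (-0.30), library size only (-0.34) and a filter of 10 counts or more per library (-0.28), so that 1 member was called lower. Pcbp1 passed in DESeq2 (0.16). Library size only moved Pcbp2 to -0.0216, Cdc42bpa to -0.0285 and Ireb2 to -0.0574, and turned the split of all calls from 1491 higher and 1259 lower to 986 and 1809. Upper quartile scaling moved Ireb2 to -0.0115. With the cutoff of the study (p under 0.05 before adjustment and a log2 fold change of 0.5 or more in size), 0 members, 3 pathway genes and 0 further genes with the element were higher, and 3 pathway genes were lower. With 1 library left out, 1 to 3 members were higher and 0 to 1 lower, 4 to 9 pathway genes were higher and 3 to 7 lower, and 0 to 1 of the further genes with the element was higher. Values whose sign then differed between libraries left out were those of Cdc42bpa (-0.0584 to 0.13), Ireb2 (-0.0789 to 0.0948) and Slc25a28 (-0.00297 to 0.21). A group then rests on 1 library, which is assumed to vary like the other group. The cause of these changes was not tested.

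Same-numbered libraries deviated together weakly (r = 0.0293 over 13732 genes, 0.220 over 8521 genes of at least 10 CPM), and the labels do not say that a number marks an experiment. With the replicate number as a block, Slc11a2 (-0.28, adjusted p = 0.0308) and Pcbp1 (0.17, adjusted p = 0.0203) passed the test, so 1 member was called lower. Under this block, 3425 rather than 2750 genes passed over the whole table. Among the pathway genes, 10 rather than 7 were then higher and 6 rather than 5 lower. Depth limits Cybrd1 and Slc40a1, for which at most 36 reads were counted in a library.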
